A study of Mus musculus with 76 samples.

Results

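The genes described here are 10 mouse genes of the ATF4 stress response: *Atf4*, *Atf5*, *Ddit3*, *Chac1*, *Trib3*, *Asns*, *Sesn2*, *Ddit4*, *Fgf21* and *Gdf15*. They were chosen by symbol, from what is known of the pathway, out of 20295 gene names in the tables of liver and visceral white adipose tissue (WAT). Earlier results of these data were known when they were chosen. Each table held 9 of the 10, and *Fgf21* was not analysed here. The samples came from female mice on a C57BL/6 background with free access to food and drink, whose age the labels do not give. *Fnip2*C/C mice carry on both alleles an engineered T-to-C change in the 3′ untranslated region of *Fnip2*, in a site of miR-181b-5p, together with a change that removes the Cas9 recognition site, and *Fnip2*T/T mice carry the ancestral T on both. FNIP2 partners folliculin in the nutrient input to mTORC1, and the comparison asks what the variant alters in tissues that matter for metabolism. WAT was sequenced from 4 mice of the *Fnip2*C/C genotype and from 5 *Fnip2*T/T mice, liver was sequenced from 5 mice of each genotype, with 1 library per mouse and tissue, and 6 of the 13 mice gave both tissues. The libraries read the 3′ ends of poly(A) transcripts. Levels are given as the deposited normalized counts, which are reads corrected for the depth of the library, and the 2 tissues were normalized separately.

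ATF4 is the transcription factor of the integrated stress response. When the kinases GCN2, PERK, PKR or HRI phosphorylate the translation factor eIF2, most protein synthesis slows while ATF4 is translated better, so that its protein can change without its mRNA. ATF4 then raises genes for amino acid synthesis, uptake and tRNA charging and, when stress persists, the factor CHOP (encoded by *Ddit3*). *Sesn2* and *Ddit4* encode brakes on mTORC1, the growth-promoting kinase complex, and *Fgf21* and *Gdf15* encode hormones that tissues under stress release into blood.

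ATF4 binds DNA with a C/EBP partner at amino acid response elements, whose core is searched for here as TGATGNAAN on both strands. In RefSeq's promoter windows of 300 bases (250 before and 50 after the annotated start, build GRCm38.p6), 4 of the 10 genes had a match, compared with 4.5% of all 27025 gene symbols, or 3.95% of all 32851 windows, since some genes have more than 1 window. The matches of the 3 genes that were also measured are given here on the gene's own strand, 5′ to 3′, with the match in capitals. They lie at chr2:119351038-119351066 for *Chac1* (plus strand), chr2:152344029-152344057 for *Trib3* (minus strand) and chr6:7693214-7693242 for *Asns* (minus strand).
Chac1: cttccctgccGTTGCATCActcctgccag
Trib3: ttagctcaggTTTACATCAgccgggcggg
Asns: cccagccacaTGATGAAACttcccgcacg
The matches of *Chac1* and *Trib3* are in the reverse orientation, starting 194 bases before and 13 bases after the transcription start, and that of *Asns* starts 23 bases before it. *Fgf21* had the fourth match. These letters were not found in the windows of *Atf4*, *Atf5*, *Ddit3*, *Sesn2*, *Ddit4* and *Gdf15*. Of the 3 measured genes with a match, *Asns* was called in WAT, as described further on, and *Chac1* and *Trib3* were called in neither tissue.

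The reads assigned to genes ranged from 4180209 to 6277644 per WAT library and from 5583041 to 7523200 per liver library. *Fnip2* itself had normalized counts of 14.1 to 30.9 in *Fnip2*C/C and 14.5 to 42.6 in *Fnip2*T/T WAT, and of 133 to 197 in *Fnip2*C/C and 49.2 to 134 in *Fnip2*T/T liver, and passed the test in neither tissue (adjusted p = 0.58 and 1). The WAT library of *Fnip2*C/C mouse 593 stood apart. It held 3478 CPM (reads scaled to the same total in every library) of *Cyp11a1*, an enzyme of ovarian and adrenal steroid synthesis, compared with 0 to 2.87 in the other WAT libraries, and the fewest reads of the adipocyte genes *Adipoq* (973 CPM) and *Plin1* (109 CPM). Reads of 12 adipocyte markers summed to between 18683 and 53028 CPM in *Fnip2*C/C and between 31424 and 56838 in *Fnip2*T/T WAT, with 8 of the 12 called lower in *Fnip2*C/C WAT. Reads of 6 erythroid markers lay between 634 and 993 CPM in *Fnip2*C/C and between 2172 and 3004 in *Fnip2*T/T WAT. Small nucleolar RNAs took 0.0276% to 0.154% of reads in *Fnip2*C/C and 0.00949% to 0.0196% in *Fnip2*T/T WAT. Reads of 7 endothelial markers lay between 368 and 572 CPM in *Fnip2*C/C and between 583 and 971 in *Fnip2*T/T WAT, with 1 marker called higher and 3 lower. Reads of the hepatocyte markers lay between 629 and 1415 CPM in *Fnip2*C/C and between 1229 and 2602 in *Fnip2*T/T WAT, with 2 of the 4 tested called lower. None of the erythroid, endothelial and small nucleolar values overlapped between the genotypes, whereas the summed macrophage, mesothelial, fibroblast and smooth muscle markers did. Of all single genes tested in WAT, 26.1% separated by genotype in normalized counts, and 15.1% were called higher and 17% lower. The part of these markers and small nucleolar RNAs in the results for WAT was not tested. In WAT the RNA label numbers were even in all *Fnip2*C/C and odd in all *Fnip2*T/T mice, so that whatever that numbering stands for and the genotype cannot be told apart there. In liver 2 of the 5 *Fnip2*C/C and 3 of the 5 *Fnip2*T/T mice had even numbers.

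In WAT, 2 members were higher and 2 were lower in *Fnip2*C/C mice. *Atf4* and *Ddit3* rose, whereas *Ddit4* and *Asns* fell, and *Atf5*, *Chac1*, *Trib3* and *Sesn2* did not pass the test. A gene was called when its adjusted p, corrected over all 12798 genes tested, was under 0.05. Thus 4 of the 8 members tested were called, in a tissue where 32.1% of all genes tested were called (15.1% higher and 17% lower), and 6 of the 8 had an unadjusted p under 0.05, as had 43.9% of all genes. The median log2 fold change of the 8, *Fnip2*C/C minus *Fnip2*T/T, was 0.07 and that of all genes was 0.02. In a bulk tissue, fewer cells of a type and less RNA per cell cannot be told apart.

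*Ddit3* showed the largest rise among the members. Its normalized counts in *Fnip2*C/C WAT were 524.5, 957.4, 842.2 and 1367 in mice 590, 593, 599 and 638, and in *Fnip2*T/T WAT they were 215, 342.5, 543.6, 143.8 and 241 in mice 607, 608, 609, 657 and 658. All *Fnip2*C/C libraries were above all but 1 of the *Fnip2*T/T libraries, and the lowest of them lay just under *Fnip2*T/T mouse 609. The means were 923 ± 348 (SD, n = 4) and 297 ± 155 (SD, n = 5), a ratio of 3.11, and the log2 fold change was 1.70 ± 0.36 (SE) with an adjusted p of 0.00443. By exact two-sided permutation of the genotype labels p was 0.0238. *Ddit3* was the only member that remained called when any 1 of the 9 mice was left out, with a highest adjusted p of 0.0172. In the GENCODE vM21 annotation the end of *Ddit3* overlaps that of *Mars1*, on the opposite strand, by 68 bases, and the strand setting of the counting is not given in the sources used here. The value of *Mars1* was −0.33 on the same scale (adjusted p = 0.283). The same annotation holds a second entry named *Ddit3*, which overlaps the first by 2925 bases on the same strand, and its effect on the counts was not tested.

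*Atf4* stood, in the same order of mice, at 2285, 2415, 1771 and 2276 normalized counts in *Fnip2*C/C WAT and at 1065, 1800, 1653, 798 and 1273 in *Fnip2*T/T WAT. A single *Fnip2*C/C library, from mouse 599, fell below the highest *Fnip2*T/T library. It rose by 0.78 ± 0.24 on the log2 scale (SE, adjusted p = 0.0267), and the exact permutation p was 0.0397. The call was lost when mouse 593, 638, 607, 657 or 658 was left out, with adjusted p-values of up to 0.0639. *Atf5*, the relative of *Atf4* that is also translated under stress, had values of 1244, 1039, 1432 and 1285 in *Fnip2*C/C and 706, 1052, 1419, 668 and 1444 in *Fnip2*T/T WAT. The *Fnip2*C/C values lay within the range of the *Fnip2*T/T values (log2 fold change 0.31 ± 0.25, adjusted p = 0.373). *Atf5* overlaps *Nup62* on the opposite strand at its start.

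*Ddit4*, which encodes the mTORC1 inhibitor REDD1, showed the largest fall. The 4 *Fnip2*C/C libraries were close together, at 27.1, 25.3, 27.1 and 23.4, whereas those of *Fnip2*T/T mice spread over 161, 20.4, 88.2, 244 and 168. *Fnip2*T/T mouse 608 was below all *Fnip2*C/C mice, and the other *Fnip2*T/T mice were above them. Its log2 fold change was −1.98 ± 0.55 (SE, adjusted p = 0.0177), and the exact permutation p was 0.0476. Without mouse 608 the log2 fold change was −2.55 (adjusted p = 0.00101), and without *Fnip2*C/C mouse 638 the call was lost (adjusted p = 0.0605). On the log2 scale the SD was 0.0958 in *Fnip2*C/C and 1.38 in *Fnip2*T/T WAT. *Sesn2*, the other mTORC1 inhibitor of the list and a leucine sensor, had 77.6, 35.6, 48.8 and 72.6 in *Fnip2*C/C and 69.8, 88.5, 201, 106 and 79.6 in *Fnip2*T/T WAT. Only the lowest *Fnip2*T/T library lay within the range of the *Fnip2*C/C libraries. Its log2 fold change of −0.84 ± 0.32 (SE) did not pass the threshold with an adjusted p of 0.0608, or with 0.0538 by edgeR, and did with 0.0399 by DESeq2. In the GENCODE vM21 annotation *Gm12981* overlaps *Sesn2* by 6089 bases on the same strand, and the effect on the counts was not tested.

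Of the 3 measured genes with a motif match in the promoter window, *Asns* was lower in *Fnip2*C/C WAT and *Chac1* and *Trib3* did not pass the test. *Asns*, which makes asparagine, stood at 265, 123, 224 and 136 in *Fnip2*C/C and at 338, 229, 307, 233 and 344 in *Fnip2*T/T WAT. One *Fnip2*C/C library, from mouse 590, lay above 2 of the *Fnip2*T/T libraries. *Asns* had a log2 fold change of −0.68 ± 0.25 (SE), with an adjusted p of 0.0487 just under the threshold and an exact permutation p of 0.0476. The call was lost when mouse 593, 638, 607, 609, 657 or 658 was left out, and also by edgeR (adjusted p = 0.0603), with no filter on low values (0.0578) and with library weights (0.0824). *Chac1*, which degrades glutathione and is a target of ATF4 and CHOP, had 18.8, 21.5, 28.2 and 30.45 in *Fnip2*C/C and 15.6, 14.6, 18.98, 14.9 and 13.6 in *Fnip2*T/T WAT. These rest on only 15 to 26 reads per library, and the lowest *Fnip2*C/C value lay just under the highest *Fnip2*T/T value. The log2 fold change of *Chac1* was 0.62 ± 0.29 (SE, adjusted p = 0.112), and the exact permutation p was 0.0238. *Trib3*, a pseudokinase that is induced by CHOP and restrains it, had 40.1 to 71.45 in *Fnip2*C/C and 34.9 to 92.4 in *Fnip2*T/T WAT, with a log2 fold change of −0.16 ± 0.31 (adjusted p = 0.712). *Gdf15* was under the filter of a mean normalized count of 10, at 3.53, 24.3, 16.3 and 5.86 in *Fnip2*C/C and 6.57, 8.76, 13.4, 2.98 and 6.06 in *Fnip2*T/T WAT (exact permutation p = 0.444). Its mean without mouse 593 differed by 0.05 on the log2 scale between the genotypes, compared with 0.46 with it.

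**Figure D1:**
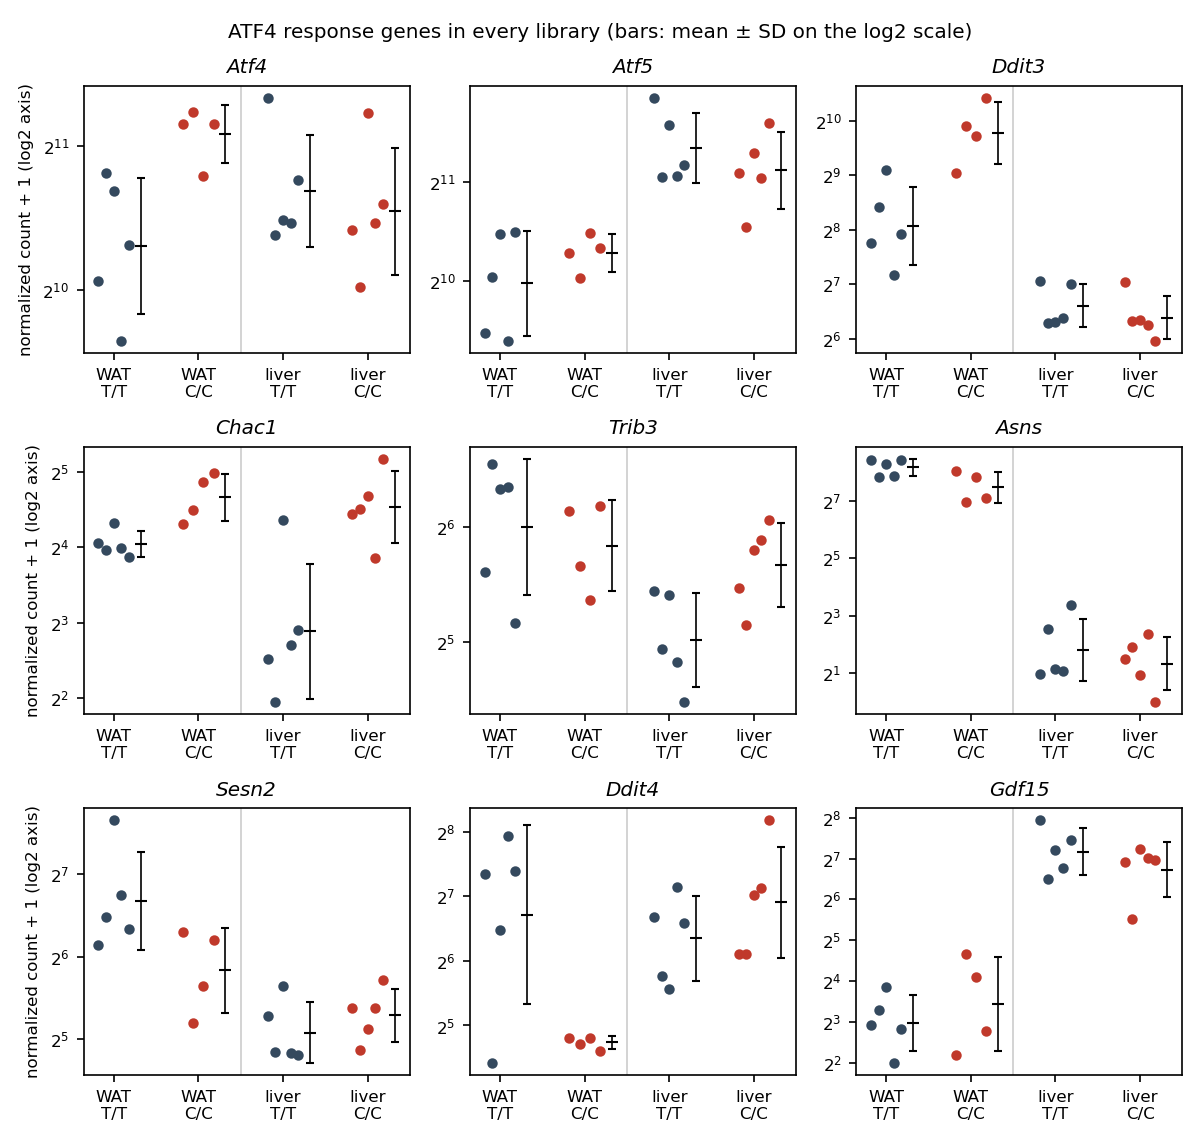
Normalized counts plus 1 (log2 axis) of the 9 members with a value in every library, by tissue and genotype, where each point is 1 mouse and the bars beside the points give the mean ± SD on the log2 scale. The *Ddit3* points of *Fnip2*C/C WAT lie between 524.5 and 1367, and those of *Ddit4* lie close together between 23.4 and 27.1 while the *Fnip2*T/T points spread from 20.4 to 244.

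No member had WAT libraries that separated fully by genotype on the normalized scale, where 26.1% of all genes tested did (12.2% higher and 13.8% lower). Without mouse 593, 2 members stayed called, *Ddit3* (adjusted p = 0.013) and *Ddit4* (adjusted p = 0.042), whereas *Atf4* (0.0534) and *Asns* (0.129) did not. In that fit 3761 of all 12691 genes tested were called. The mouse numbers fall into 590 to 609 and 638 to 659, and each genotype has mice in both ranges. Among the lower numbers (3 of each genotype) the differences on the log2 scale were 1.13 for *Ddit3*, 0.54 for *Atf4*, −1.30 for *Ddit4* and −0.57 for *Asns*. Among the higher numbers (1 *Fnip2*C/C and 2 *Fnip2*T/T) they were 2.87, 1.17, −3.06 and −1.05, in the same directions. *Trib3* had opposite signs in the 2 ranges (−0.44 and 0.42).

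**Figure D2:**
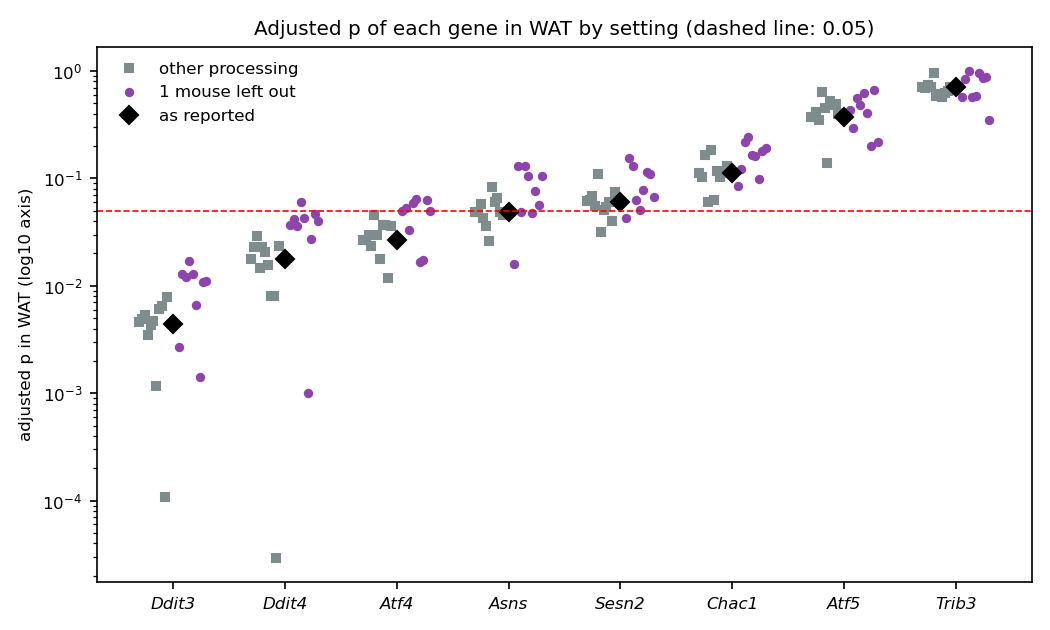
Adjusted p (log10 axis) of the 8 members tested in WAT as reported (diamonds), under 11 other ways of processing (squares) and with 1 of 9 mice left out (circles), with the threshold of 0.05 as a dashed line. All points of *Ddit3* lie under the line, 1 circle of *Ddit4* lies above it, and the points of *Asns* and *Atf4* fall on both sides.

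In liver no member passed the test, and neither did any other of the 11710 genes tested (0%), by limma, edgeR or DESeq2. The liver groups follow the labels, although the liver table lists the even RNA label numbers first and the odd ones after, an order that in the WAT table coincides with the genotype and in liver does not. Whether the labels of the livers or their order hold an error was not tested. With limma 231 genes (1.97%) had an unadjusted p under 0.05, among them 2 of the 8 members tested, *Chac1* and *Trib3*. No member had livers that separated fully by genotype, where 0.111% of genes did with *Fnip2*C/C higher and 0.137% with it lower. The median log2 fold change of the 8 members was 0.04 and that of all genes was 0.01.

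*Chac1* had the lowest p of the members in liver and the third lowest of all genes tested. Its normalized counts were 20.8, 21.7, 24.6, 13.45 and 34.85 in *Fnip2*C/C mice 590, 591, 592, 638 and 639, and 4.72, 2.87, 19.5, 5.49 and 6.50 in *Fnip2*T/T mice 607, 608, 657, 658 and 659. The *Fnip2*T/T mouse 657 lay among the *Fnip2*C/C mice, and the other *Fnip2*T/T mice were below all of them. These levels rest on 13 to 33 reads in *Fnip2*C/C and 3 to 16 reads in *Fnip2*T/T libraries. The mean of *Chac1* was 23.1 in *Fnip2*C/C and 7.82 in *Fnip2*T/T liver, and only the *Fnip2*C/C mean lay above the filter on low values. Being tested, and so having a rank among the genes tested, therefore rested on the *Fnip2*C/C libraries. The log2 fold change was 1.64 ± 0.39 (SE) with an unadjusted p of 0.000589 and an adjusted p of 1 by limma and 0.595 by DESeq2, and the exact permutation p was 0.0159. Without mouse 657 the log2 fold change was 2.01 (adjusted p = 0.174). Differences within the ranges of mouse numbers were 2.31 in the lower and 1.19 in the higher, and a term for even against odd RNA label numbers gave 1.70.

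*Trib3* had 43.3, 34.4, 54.7, 57.9 and 65.5 in *Fnip2*C/C and 42.5, 29.6, 41.5, 27.4 and 21.35 in *Fnip2*T/T liver, and all *Fnip2*C/C values were above the *Fnip2*T/T median. The log2 fold change was 0.65 ± 0.23 (SE, unadjusted p = 0.0107, adjusted p = 1), and the exact permutation p was 0.0317. The 3 members that encode the transcription factors overlapped between the genotypes in liver. *Atf4* ranged from 1038 to 2410 in *Fnip2*C/C and from 1331 to 2585 in *Fnip2*T/T liver, with a log2 fold change of −0.14 ± 0.22. *Atf5* ranged from 1499 to 3124 and from 2132 to 3712 (−0.23 ± 0.19), and *Ddit3* from 61.2 to 129.9 and from 77.4 to 132.1 (−0.22 ± 0.21).

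The mTORC1 inhibitors also overlapped in liver. *Ddit4* had 67.7, 67.9, 128, 139 and 288 in *Fnip2*C/C and 101, 53.5, 46.3, 141 and 94.7 in *Fnip2*T/T liver (log2 fold change 0.56 ± 0.45), and *Sesn2* had 28.1 to 51.7 and 26.9 to 48.8 (0.21 ± 0.22). The value of *Ddit4* was 0.24 without *Fnip2*C/C mouse 639, its highest library. *Gdf15* ranged from 45.2 to 149 and from 89.8 to 245 (−0.44 ± 0.36), and the difference was −0.14 without *Fnip2*C/C mouse 591, its lowest library. *Asns* was near 0 in all livers, with 0 to 4 reads in *Fnip2*C/C and 1 to 10 reads in *Fnip2*T/T libraries, and was not tested by the fit. The library of mouse 639 had no *Asns* read, which allows up to 0.44 CPM.

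**Figure D3:**
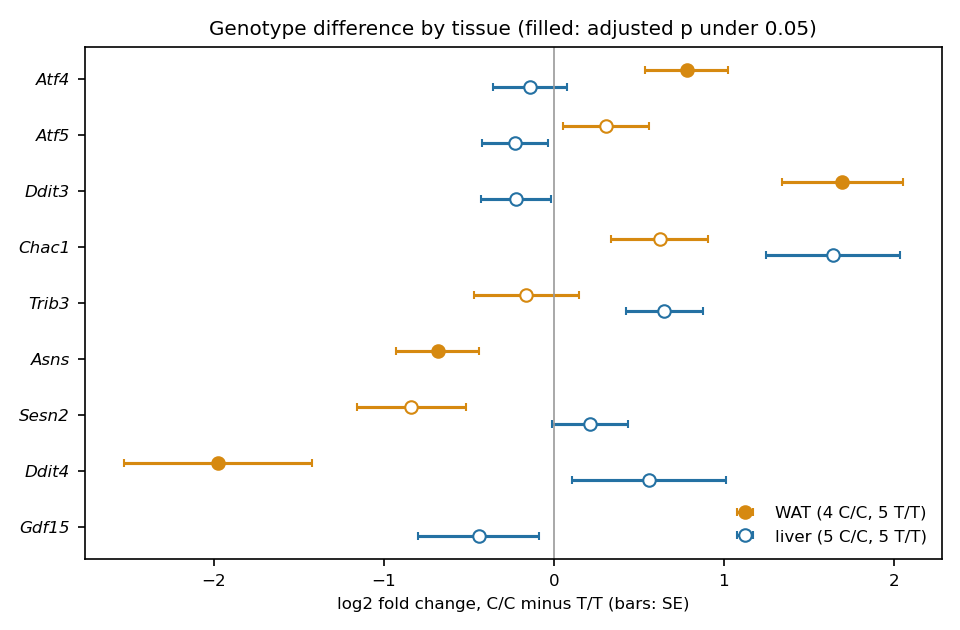
Log2 fold change (*Fnip2*C/C minus *Fnip2*T/T) of each member in WAT (orange) and liver (blue), with SE as bars and filled points where the adjusted p was under 0.05. The filled points are *Atf4* at 0.78, *Ddit3* at 1.70, *Asns* at −0.68 and *Ddit4* at −1.98, all in WAT.

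The genotype differences of the 7 members kept in both tissues were set against each other in 1 fit of all 19 libraries. For 4 of the 7 the difference in WAT differed from that in liver with an adjusted p under 0.05, where 29.2% of 10404 genes did (11.5% higher and 17.7% lower in this sense), with 40.4% of genes at an unadjusted p under 0.05. *Ddit3* had an interaction (the difference in WAT minus that in liver) of 1.92 ± 0.44 (SE, adjusted p = 0.00328) and *Ddit4* of −2.54 ± 0.77 (adjusted p = 0.0198). *Atf4* had 0.92 ± 0.34 (adjusted p = 0.0449) and *Sesn2* had −1.05 ± 0.40 (adjusted p = 0.0498), both near the threshold. *Chac1* (−1.02 ± 0.50, adjusted p = 0.132), *Trib3* (−0.81 ± 0.39, adjusted p = 0.124) and *Atf5* (0.53 ± 0.34, adjusted p = 0.237) did not pass. Since 6 mice gave both tissues, the fit was repeated with the mouse as a block. With the block estimated over all libraries, *Ddit3* (adjusted p = 0.00432) and *Ddit4* (0.028) stayed called whereas *Atf4* (0.0576) and *Sesn2* (0.0532) did not. With a fixed block over the 6 paired mice, of which 2 were *Fnip2*C/C, none of the 7 passed, with 1.77 ± 0.56 for *Ddit3* (adjusted p = 0.0652) and −2.39 ± 0.84 for *Ddit4* (adjusted p = 0.0955). Leaving out 1 mouse at a time ended the call of *Atf4* for 9 of 13 mice (mice 590, 591, 593, 607, 638, 639, 657, 658 and 659), that of *Sesn2* for 10 of 13, and that of *Ddit4* for mice 638 and 657. Without mouse 657 *Chac1* passed, at −1.40 (adjusted p = 0.0248).

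Levels in the 2 tissues can be set side by side as CPM, although the tables were made separately and no test was run across them. *Ddit3* was highest in *Fnip2*C/C WAT (195 ± 74.2, SD), followed by *Fnip2*T/T WAT (64.5 ± 30.1), *Fnip2*T/T liver (14.8 ± 4.15) and *Fnip2*C/C liver (12.7 ± 4.28), and only the step from WAT to liver was without overlap between libraries. *Asns* had 64.3 ± 13.2 in *Fnip2*T/T and 38.7 ± 12.6 in *Fnip2*C/C WAT but 0.531 ± 0.571 and 0.284 ± 0.231 in liver. *Gdf15* was the reverse, at 22.5 ± 8.5 and 16.7 ± 5.82 in *Fnip2*T/T and C/C liver but 2.72 ± 2.25 and 1.64 ± 0.765 in *Fnip2*C/C and T/T WAT. The order of *Ddit4* was *Fnip2*T/T WAT (30.7 ± 20.1), *Fnip2*C/C liver (20 ± 12.1), *Fnip2*T/T liver (12.9 ± 5.55) and *Fnip2*C/C WAT (5.40 ± 0.458), of which only the last step had no overlap. *Sesn2* had 23.8 ± 10.3 in *Fnip2*T/T and 12.1 ± 3.5 in *Fnip2*C/C WAT, above 5.71 ± 1.09 and 4.99 ± 1.32 in *Fnip2*C/C and T/T liver. Its WAT libraries did not overlap between the genotypes in CPM but did in normalized counts. The share of all genes that separate in CPM was not counted, and on the normalized scale it was 26.1% of all genes tested in WAT. *Atf4*, *Atf5*, *Chac1* and *Trib3* overlapped at every step of their order, with *Atf4*, *Chac1* and *Trib3* highest in WAT and *Atf5* highest in liver.

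The genes upstream of ATF4 moved in both directions in WAT. Of 14 genes for eIF2 kinases and their regulators, eIF2 and its exchange factor eIF2B, 5 rose and 2 fell, so that 50% were called, beside 32.1% of all genes tested (15.1% higher and 17% lower). *Gcn1*, the activator of the kinase GCN2, rose (normalized counts 710 ± 151 and 246 ± 44.4 in *Fnip2*C/C and T/T WAT, log2 fold change 1.52 ± 0.20, adjusted p = 0.000559). *Eif2ak4*, encoding GCN2 itself, rose by 0.55 ± 0.18 (adjusted p = 0.0342), as did *Eif2ak2*, encoding PKR, by 0.79 ± 0.23 (adjusted p = 0.0219). *Eif2ak3*, encoding PERK (0.92 ± 0.37, adjusted p = 0.0747), and *Eif2ak1*, encoding HRI (−0.27 ± 0.18, adjusted p = 0.27), did not pass. *Eif2b5*, the catalytic subunit of eIF2B, rose by 1.07 ± 0.18 (adjusted p = 0.00164). In contrast, *Eif2b1*, another eIF2B subunit, had a log2 fold change of −3.14 ± 0.69 (adjusted p = 0.00561) and *Eif2s1*, encoding the phosphorylated subunit of eIF2, of −1.18 ± 0.30 (adjusted p = 0.011). The mean of *Eif2b1* was 6.67 ± 6.44 in *Fnip2*C/C and 47.5 ± 23.7 in *Fnip2*T/T WAT, and only the latter lay above the filter on low values. Being tested, and so being counted as called, therefore rested for *Eif2b1* on the *Fnip2*T/T libraries. Of 6 genes tested for eIF2 phosphatase and feedback only *Ppp1cc* was called (1.61 ± 0.27, adjusted p = 0.00154), and *Ppp1r15a*, encoding GADD34, was under the filter.

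Among 14 partners of ATF4 and related factors, 1 rose and 2 fell (21.4% called, beside 32.1% of all genes tested). *Cebpb* (−0.81 ± 0.28, adjusted p = 0.0412) and *Cebpd* (−2.25 ± 0.46, adjusted p = 0.00383), encoding C/EBP factors, fell, and *Nfe2l2*, encoding the oxidative stress factor NRF2, rose (0.90 ± 0.19, adjusted p = 0.00458). *Cebpg*, encoding a dimer partner of ATF4, just missed the threshold (−0.77 ± 0.28, adjusted p = 0.0509).

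The amino acid genes that ATF4 is known to raise did not move together in WAT, where 32.1% of all genes tested were called (15.1% higher and 17% lower). Of 11 enzymes tested for serine, glycine, proline and folate-linked carbon metabolism 1 rose (*Cbs*, 1.01 ± 0.34) and 1 fell (*Gpt2*, −0.74 ± 0.24), so that 18.2% were called. *Psat1* (−0.45 ± 0.30, adjusted p = 0.272), *Phgdh* (−1.04 ± 0.55, adjusted p = 0.161) and *Mthfd2* (0.74 ± 0.53, adjusted p = 0.306) did not pass. Of 9 amino acid transporters tested 1 rose and 2 fell, a share of 33.3% that is close to that of all genes. *Slc3a2*, the heavy chain that several of them share, fell from 164 ± 45.3 in *Fnip2*T/T to 36.2 ± 17.9 in *Fnip2*C/C WAT (−2.24 ± 0.33, adjusted p = 0.000904), and *Slc7a1*, an arginine transporter, rose by 0.99 ± 0.28 (adjusted p = 0.019). The other transporter that fell, *Slc6a9*, had means of 8.85 in *Fnip2*C/C and 22.4 in *Fnip2*T/T WAT, and only the latter lay above the filter. *Slc7a11*, the cystine transporter, was near 0 in WAT. Of 20 cytosolic aminoacyl-tRNA synthetases 6 rose and 2 fell (40% called, median log2 fold change −0.08), among them *Sars* (0.82 ± 0.21, adjusted p = 0.0103) and *Yars* (0.71 ± 0.19, adjusted p = 0.0135) upwards and *Kars* (−1.79 ± 0.38, adjusted p = 0.00463) and *Aars* (−1.05 ± 0.25, adjusted p = 0.00742) downwards. Of 15 other targets of ATF4 and CHOP that were tested 2 rose and 6 fell (53.3% called), with a median log2 fold change of −0.50. *Bbc3*, encoding the apoptosis inducer PUMA (−2.38 ± 0.66, adjusted p = 0.0169), and *Atg12*, an autophagy gene (−0.85 ± 0.17, adjusted p = 0.00284), fell, and *Hmox1*, encoding heme oxygenase, rose (0.85 ± 0.21, adjusted p = 0.0101). *Eif4ebp1*, encoding a repressor of translation, did not pass (−0.50 ± 0.21, adjusted p = 0.0813).

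The mTORC1 regulators of the inputs that Sestrin2 and REDD1 feed into were split as well, with 3 higher and 4 lower of 13 tested. Thus 53.8% were called, beside 32.1% of all genes tested. *Mios* rose (1.14 ± 0.26, adjusted p = 0.00599) while *Wdr24* (−2.22 ± 0.38, adjusted p = 0.00155) and *Sec13* (−2.18 ± 0.41, adjusted p = 0.00236) fell, although all 3 encode parts of GATOR2, the complex that Sestrin2 binds. The mean of *Wdr24* was 4.54 ± 1.62 in *Fnip2*C/C and 24.2 ± 5.12 in *Fnip2*T/T WAT. Only the *Fnip2*T/T mean lay above the filter on low values, so that its being tested rested on those libraries. *Rheb*, the activator of mTORC1, fell from 137 ± 17.4 to 52.2 ± 22 (−1.49 ± 0.30, adjusted p = 0.00326). Among relatives of the members, *Trib1* fell (−0.73 ± 0.24, adjusted p = 0.036), and *Sesn1* (−0.41 ± 0.23) and *Sesn3* (0.42 ± 0.24) did not pass. None of 5 receptor genes tested for FGF21 and GDF15 was called, with −0.50 ± 0.27 for *Klb* and −0.49 ± 0.21 for *Fgfr1*.

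The other arms of the unfolded protein response and the mitochondrial stress response moved in part in WAT. Of 19 genes of the ATF6 and XBP1 arms 3 rose and 7 fell, so that 52.6% were called, beside the same 32.1% of all genes. *Xbp1* (−1.77 ± 0.46, adjusted p = 0.0127), *Atf6b* (−2.51 ± 0.29, adjusted p = 0.000366) and the protein disulfide isomerase *Pdia6* (−1.77 ± 0.27, adjusted p = 0.00102) fell, whereas *Pdia4*, of the same enzyme family, rose (1.46 ± 0.27, adjusted p = 0.00223). *Hspa5*, encoding the chaperone BiP, was 2261 ± 277 in *Fnip2*C/C and 1985 ± 458 in *Fnip2*T/T WAT (0.21 ± 0.21, adjusted p = 0.463). Of 10 mitochondrial stress genes none rose and 3 fell, a share of 30% that is close to that of all genes, namely *Hspd1* (−1.06 ± 0.23, adjusted p = 0.0048), *Hspa9* (590.0 ± 144.4 and 1194 ± 343.7 normalized counts) and *Lonp1* (−1.74 ± 0.37, adjusted p = 0.00438). No gene of these lists was called in liver.

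**Figure D4:**
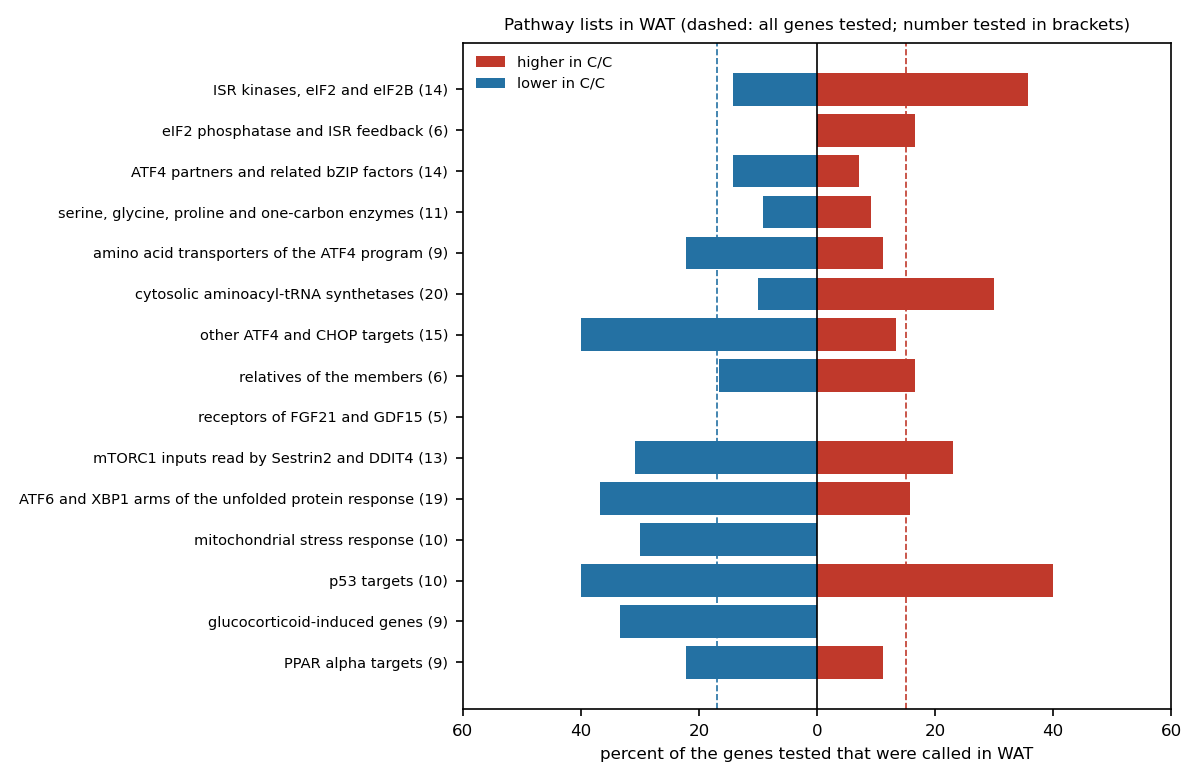
Percent of the genes tested in each of 15 pathway lists that were called higher (red, to the right) or lower (blue, to the left) in *Fnip2*C/C WAT, with the number tested in brackets and the share over all genes tested, 15.1% higher and 17% lower, as dashed lines. Bars extend to both sides for most lists, and the eIF2 list has 5 of 14 genes to the right while the other ATF4 and CHOP targets have 6 of 15 to the left.

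Without mouse 593, the counts for WAT were 5 higher and 2 lower of 14 for the eIF2 list, 4 and 3 of 20 for the synthetases, 3 and 5 of 16 for the other ATF4 and CHOP targets, 3 and 4 of 13 for the mTORC1 regulators and 3 and 7 of 19 for the ATF6 and XBP1 arms. The enzyme list had 0 higher and 1 lower of 12, the transporters 2 and 1 of 9, the partners 1 and 1 of 14, and the relatives had no call left. Over all genes, 3761 of 12691 were called without mouse 593 (1752 higher and 2009 lower).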

How the data were processed

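Visceral WAT and liver RNA of female mice was sequenced as 3′ tag libraries (QuantSeq FWD, 500 ng and 250 ng of RNA). The submitters' processing notes list FastQC 0.11.9, HISAT2, SAMtools 1.12, HTSeq and DESeq2 and the build GRCm39, without roles or settings. The authors deposited 1 table of signal values per tissue, normalized counts that combine 4 runs per mouse. All values were whole multiples of 1 step per library, so that whole reads were recovered for 100% of values, with a largest deviation from a whole number of 1.8e-09. 1 column of the WAT table that no label describes was not used. Groups follow the genotype in the labels.

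Log2(normalized count + 1) of genes with a mean of at least 10 was tested per tissue with limma 3.58.1 (trend and robust options, R 4.3.3, Benjamini-Hochberg adjustment over all genes tested, threshold 0.05), *Fnip2*C/C minus *Fnip2*T/T. The tissues were compared by an interaction in a fit of all libraries. Single members were compared with exact two-sided permutation tests (126 groupings in WAT, 252 in liver), without adjustment over the list. Fold changes are on this log2 scale, which understates those of low genes. The same mouse gave both tissues in 6 cases, which pairs them by design. Deviations from the group means in the 2 tissues correlated across genes between −0.203 and 0.156 in these mice.

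Alternatives were pseudocounts of 0.5 and 10, no filter or a minimum mean of 50, quantile or total scaling, library weights, edgeR 4.0.16 and DESeq2 1.42.0 on the recovered reads, a term for mouse numbers, the mouse as block, and each mouse left out. The term for even label numbers in liver, the alternatives to the exact tests and the lists without mouse 593 were added after seeing the data. Scripts were tested on simulated data. Reads carry no molecular identifiers, so counting limits cover counting error only. Named beside the members are up to 4 genes per pathway list with the lowest p in WAT and a fixed set of pathway genes, though not every such gene is reported here. The members and the gene lists, which were written from general knowledge, were chosen with earlier results of these data known. The promoter windows are of another build (GRCm38.p6) than the counts, and were used by gene name.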

Additional observations from a re-analysis of the deposited data

Results flagged for a closer look

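The genotype difference differed between WAT and liver for 4 of 7 members by the interaction test, as it did for 29.2% of all 10404 genes tested. The 4 were *Ddit3* (1.92 on the log2 scale), *Ddit4* (−2.54), *Atf4* (0.92) and *Sesn2* (−1.05). *Ddit3* and *Ddit4* also stayed called with the mouse as an estimated block. With a fixed block over the 6 paired mice neither passed (adjusted p = 0.0652 and 0.0955), and *Ddit4* lost its call without mouse 638 or 657. In liver, the lowest *Fnip2*C/C value of *Gdf15*, from mouse 591, was far from the other livers of its group, with a gap that took 0.813 of the range of the 5 values on the log2 scale. Without it the genotype difference of *Gdf15* in liver was −0.14, compared with −0.44 with it. It was 1 of 36 groups of libraries examined in this way, where chance flags about 1 in 20.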

How the results depend on the processing

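The number of members called in WAT was 4 and ranged from 1 to 5 when 1 mouse was left out. Over all genes the count was 4111 and ranged from 3010 to 4273 in the same fits. In liver the number of members called was 0 under all 22 alternatives, as was the count over all genes. The number of members whose difference varied between the tissues was 4. It fell to 2 with the mouse as an estimated replicate block and to 0 with a fixed replicate block over 6 mice. The count over all genes fell from 3033 to 2753 with the estimated block and to 1037 with the fixed block, which has fewer libraries in the fit. When 1 mouse was left out, the number of members ranged from 1 to 3 and the count over all genes from 2165 to 3352. The exact permutation tests gave p under 0.05 for 5 members in WAT and 2 in liver, and for 0 to 3 and 1 to 2 when 1 mouse was left out, which also leaves fewer groupings. They were run on the members only, so the share of all genes that would pass them is not known. By limma, 43.9% of all genes tested in WAT and 1.97% in liver had an unadjusted p under 0.05. The sign changed once, for *Atf4* in liver (from −0.31 without mouse 592 to 0.022 without mouse 607). Of 501 comparisons of a single member with an alternative, 451 kept the direction and the side of the threshold, 45 lost the call and 4 gained it, and the cause was not tested. Only a result called at first can lose its call, and no liver result was called. In WAT the call was lost in 10 of 20 alternatives for *Asns*, 5 for *Atf4*, 1 for *Ddit4* and 0 for *Ddit3*. That of the interaction was lost in 13 of 20 for *Sesn2*, and in 12, 3 and 1 of 21 for *Atf4*, *Ddit4* and *Ddit3*. Depth limits *Chac1* in both tissues, *Gdf15* in WAT and *Asns* in liver, which rest on few reads per library.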

Other observations

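3 further lists of genes that respond to other inputs were counted in WAT. Of 10 targets of p53 4 rose and 4 fell (80% called, compared with 32.1% of all genes tested), among them *Cdkn1a*, a cell cycle inhibitor (−1.09 ± 0.24, adjusted p = 0.00555), and *Phlda3*, an inhibitor of AKT (0.85 ± 0.24, adjusted p = 0.0175). Without mouse 593, 2 rose and 3 fell. Of 9 genes induced by glucocorticoids none rose and 3 fell, a share of 33.3% that is close to that of all genes (median log2 fold change −0.11). The 3 were *Tsc22d3* (−1.61 ± 0.22, adjusted p = 0.000751), the clock gene *Per1* (−2.07 ± 0.32, adjusted p = 0.00107) and *Klf9* (−0.96 ± 0.33, adjusted p = 0.0411), and the same count held without mouse 593. *Ddit4* also belongs to this class, and a link to its fall was not tested. Of 9 targets of PPAR alpha 1 rose and 2 fell (33.3% called). The gene that rose, *Ehhadh*, had means of 21.8 in *Fnip2*C/C and 8.12 in *Fnip2*T/T WAT, and only the former lay above the filter. None of the genes of these 3 lists was called in liver.

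The genes whose log2 values were most like those of a member were read from the correlation over the libraries of a tissue, which share the genotype difference and so are given as a description. Over the 9 WAT libraries they included *Stab1*, *Chmp1a* and *Tbcd* for *Ddit3* (Pearson r from 0.985 to 0.987), *Mrps12* and *Bak1* for *Atf4* (0.973 and 0.961), *Zeb1*, *BX000351.1* and *Tnrc18* for *Chac1* (0.975 to 0.98), and *Lnx1*, *Ndfip2* and *Usp38* for *Ddit4* (0.958 to 0.963). Over the 10 livers they were *Rpl23a*, *Gnpat* and *Ipo9* for *Chac1* (0.898 to 0.952) and *Adprm*, *Poldip3* and *Gm13803* for *Trib3* (0.934 to 0.961). No member was among the nearest 3 genes of another member in either tissue. Among the members in WAT, *Ddit3* was correlated with *Chac1* (r = 0.895) and *Atf4* (0.887), and *Atf4* with *Ddit4* (−0.908).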
